A study of Mus musculus with 3 samples.

Results

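The genes described are 10 components of the blood-brain barrier, of 21750 features in the count matrix, chosen by symbol as textbook barrier genes, with earlier results of these data known. They are the tight junction genes Cldn5, Ocln and Tjp1, the carriers Slc2a1, Slc7a5, Mfsd2a, Slco1a4 and Slco1c1, and the efflux pumps Abcb1a and Abcg2. Each symbol matched 1 row of the matrix. They were measured in 1 single-cell library from the hippocampi of 5 pooled mice that carry Aldh1l1CreERT2 and Rosa26-LSL-tdTomato. These mice had received an AAV named TIGRi-Hopx, which is Cre-dependent, represses the gene Hopx and brings an EGFP reporter, and cells were collected 3 weeks after tamoxifen and sorted for tdTomato and EGFP. All cells thus share the genotype, the vector and tamoxifen, and no library without the vector was analysed here. The Aldh1l1 promoter drives Cre mainly in astrocytes, so the endothelial cells are not the cells the sort aimed at, and mice were pooled, so no value can be given per mouse. An anti-Flag and a control IgG chromatin sample from primary astrocytes were not analysed here.

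Brain endothelial cells seal the space between them with tight junctions and carry few vesicles, so that most solutes can enter the brain only through membrane carriers. Claudin-5 and occludin span the membrane at the junction, and ZO-1 ties them to the actin cytoskeleton. Carriers bring in glucose, large neutral amino acids, lysolipids and thyroid hormone, while ATP-driven pumps return drugs and other lipophilic molecules to the blood.

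Of 6672 barcodes, 6224 cells with 39092951 UMIs and a median of 5479.5 UMIs per cell were kept. A cell was given a type where the summed UMIs of that type's marker genes reached 4 and were at least 3 times those of the next type. This rule, which used none of the 10 genes, gave a type to 5549 cells, left 459 with markers of several types (called mixed) and 216 with too few markers (called ungated). Endothelial cells, gated by Flt1, Pecam1 and Ly6c1, numbered 1456 cells, or 23.4% of all. All 7 endothelial markers kept out of the gate were present in them, at 3374 CPM in sum, against 39.8 CPM in the 4093 other typed cells. CPM is the number of UMIs of a gene per 1000000 UMIs of the group, and a range in parentheses is an exact 95% interval that covers counting error only. The kit reads the 3′ end of each molecule, so levels of different genes are set side by side as molecules, without division by length. Cells are not replicates and there is 1 library, so no difference was tested and no p-value is given. A difference is called where the ratio of 2 groups was at least 2, or at most 0.5, with at least 20 CPM in either group and an interval that does not include 1.

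All 10 genes were called higher in endothelial cells than in the other typed cells, where 20.2% of 8430 features were called higher. Together they made up 1.56% of endothelial UMIs, or 15620 CPM (15519 to 15721), against 447 CPM (439 to 455) in the other typed cells. The median log2 ratio was 5.41 over the 10 genes and 0.06 over all features tested. The ratios spread widely among the genes, with Cldn5 at 635 and Abcb1a at 482 but Ocln, Slco1c1 and Tjp1 between 12.04 and 13.5.

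Among the junction genes, Cldn5, which encodes the claudin that sets the size limit of the brain's paracellular path, had 2388 CPM (2348 to 2427) in endothelial cells and 3.76 CPM (3.09 to 4.53) in other typed cells. The ratio was 635 (527 to 773), and 18 of 8430 features, Cldn5 included, had one at least as large. A Cldn5 UMI was found in 95.9% of endothelial cells, at a median of 3541.5 UMIs per cell, against 1.73% of microglia, at a median of 6427.5. Ocln, which encodes occludin, was much less abundant, with 312 CPM (297 to 326) in endothelial cells against 25.9 CPM (24.1 to 27.8) in other typed cells. Its ratio was 12.04 (11.1 to 13.1), and a UMI was found in 64.8% of endothelial cells. Tjp1, which encodes the scaffold ZO-1, had 1535 CPM (1504 to 1567) in endothelial cells against 113 CPM (109 to 117) in other typed cells, a ratio of 13.5 (13.0 to 14.1).

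Among the carriers, Slc2a1, the glucose transporter GLUT1, had the highest level of the 10 genes. It reached 3651 CPM (3603 to 3700.3) in endothelial cells against 121 CPM (117 to 125) in other typed cells, a ratio of 30.1 (29.0 to 31.2), and was found in 98.8% of endothelial cells. Slc7a5 encodes LAT1, which exchanges large neutral amino acids and also carries L-DOPA. It had 1153 CPM (1125 to 1180.3) in endothelial cells against 29.9 CPM (28.0 to 32.0) in other typed cells, 38.5 times as much (35.9 to 41.3). Mfsd2a, which takes up lysophosphatidylcholine with docosahexaenoic acid and holds down transcytosis, had the lowest endothelial level, 291 CPM (277 to 305) against 5.49 CPM (4.67 to 6.40) in other typed cells. Its interval overlapped that of Ocln.

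The organic anion transporters followed. Slco1a4 had 2404 CPM (2364 to 2444) in endothelial cells against 18.9 CPM (17.4 to 20.6) in other typed cells, a ratio of 127 (117 to 138). Its endothelial level did not differ from that of Cldn5 beyond counting error. Slco1c1, which carries thyroxine, had 1208 CPM (1180.0 to 1236) in endothelial cells against 98.1 CPM (94.6 to 102) in other typed cells, a ratio of 12.3 (11.8 to 12.9). Choroid plexus cells and astrocytes held most of the UMIs outside the endothelium.

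Of the efflux pumps, Abcb1a, which encodes a P-glycoprotein, had 1389 CPM (1359 to 1419) in endothelial cells against 2.88 CPM (2.30 to 3.56) in other typed cells, a ratio of 482 (389.6 to 605). Abcg2, the breast cancer resistance protein, had 1291 CPM (1262 to 1319.9) in endothelial cells against 27.3 CPM (25.5 to 29.3) in other typed cells, a ratio of 47.2 (43.9 to 50.8). Abcb1b, the neighbour and close copy of Abcb1a, encodes the other P-glycoprotein of the mouse and ran the other way. It had 4.92 CPM (3.29 to 7.06) in endothelial cells, 87.4 CPM (73.2 to 104) in border macrophages and 48.0 CPM (44.7 to 51.4) in microglia. The sources used here do not say how reads that match both copies were counted, so both values are uncertain to that extent.

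**Figure D1:**
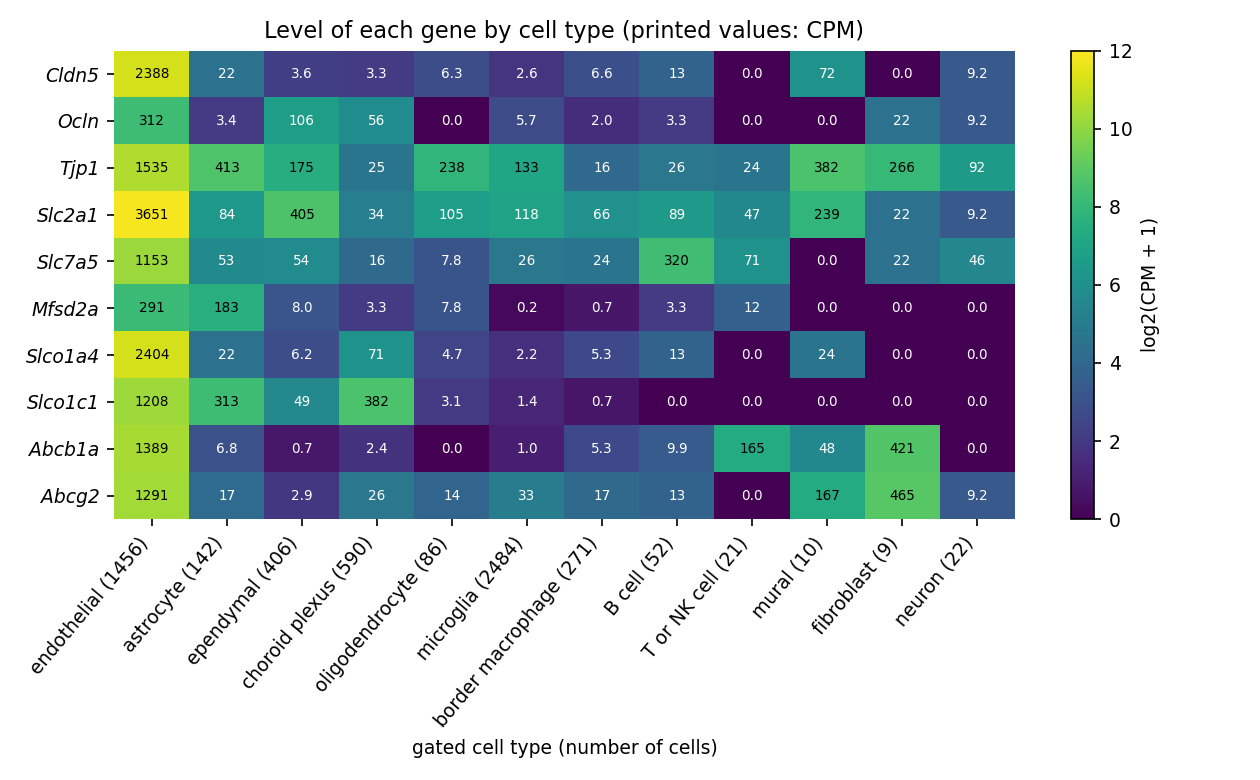
Level of each of the 10 genes (rows) in each gated cell type (columns, with the number of cells), coloured by log2(CPM + 1) and printed as CPM. The endothelial column holds the highest value of every row, from 291 CPM for Mfsd2a to 3651 CPM for Slc2a1, and types of under 50 cells are at the right.

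Most endothelial cells carried most of the 10 genes. With each cell thinned at random to 2000 UMIs, 1284 endothelial cells had a median of 8 of the 10 genes with a UMI, and 98.4% had at least 5. Microglia had a median of 0, and astrocytes, ependymal cells and choroid plexus cells a median of 1 each. Of 583 choroid plexus cells, 0.515% had at least 5 of the genes, and of 2411 microglia 0. Without thinning the medians were 9 in endothelial cells and 1 in microglia. Within endothelial cells the genes varied with little relation to each other. Over the 45 pairs of genes, Pearson's r of log-transformed thinned counts ran between -0.04 and 0.27, with a median of 0.08 over 1284 cells. These cells share 1 library and their counts are sparse, so values this low are no finding.

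**Figure D2:**
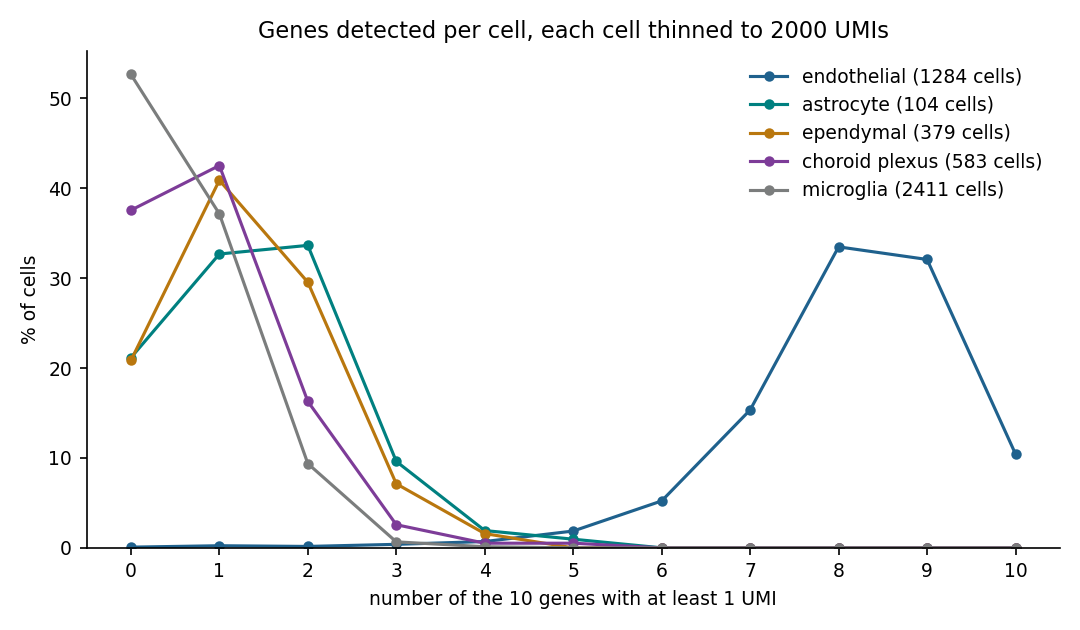
Share of cells (y axis, percent) by how many of the 10 genes had at least 1 UMI (x axis), with every cell thinned to 2000 UMIs. Endothelial cells have a median of 8 genes, microglia a median of 0, and 98.4% of endothelial cells have 5 or more.

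RefSeq promoter windows, which run from 250 bases before to 50 bases after a gene's start on GRCm38.p6, matched 9 of the 10 genes in 12 entries. Slc7a5 was not matched. The following 5 windows are shown because they contrast in base composition: Slco1a4, Slco1c1 and Abcb1a had the fewest CpG of the 12 entries, while Cldn5 and Mfsd2a, like Ocln, Tjp1 and Slc2a1, had more than the median of all windows. Capitals mark the motifs searched on both strands, which are ACAAT (SOX), CTTTGA (TCF/LEF), GTAAACA (forkhead) and CCGGAA (ETS); none of them contains another.
Cldn5, chr16:18776597-18776896, plus strand: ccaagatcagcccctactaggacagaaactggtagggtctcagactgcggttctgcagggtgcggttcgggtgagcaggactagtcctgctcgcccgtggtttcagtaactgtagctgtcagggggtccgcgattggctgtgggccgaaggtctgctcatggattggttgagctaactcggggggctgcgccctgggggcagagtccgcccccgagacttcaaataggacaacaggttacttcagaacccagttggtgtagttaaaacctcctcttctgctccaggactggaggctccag
Mfsd2a, chr4:122961139-122961438, minus strand: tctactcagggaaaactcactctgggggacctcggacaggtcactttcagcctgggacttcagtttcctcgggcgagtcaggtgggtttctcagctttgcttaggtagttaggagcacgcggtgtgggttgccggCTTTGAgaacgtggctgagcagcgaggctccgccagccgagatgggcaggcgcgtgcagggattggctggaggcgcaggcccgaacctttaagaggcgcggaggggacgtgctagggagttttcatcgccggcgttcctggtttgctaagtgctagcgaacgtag
Slco1a4, chr6:141856171-141856470, minus strand: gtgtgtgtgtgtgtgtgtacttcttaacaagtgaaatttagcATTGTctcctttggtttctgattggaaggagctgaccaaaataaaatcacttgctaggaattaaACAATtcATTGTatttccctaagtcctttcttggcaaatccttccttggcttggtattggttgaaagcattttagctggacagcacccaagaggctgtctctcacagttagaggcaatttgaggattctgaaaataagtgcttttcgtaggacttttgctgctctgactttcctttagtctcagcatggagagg
Slco1c1, chr6:141524104-141524403, plus strand: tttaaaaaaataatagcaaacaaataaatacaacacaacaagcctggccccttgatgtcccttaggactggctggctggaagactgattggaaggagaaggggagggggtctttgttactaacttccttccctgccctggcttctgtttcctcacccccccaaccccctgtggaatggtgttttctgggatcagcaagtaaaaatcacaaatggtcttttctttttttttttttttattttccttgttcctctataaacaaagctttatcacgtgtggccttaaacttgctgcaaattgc
Abcb1a, chr5:8566841-8567140, plus strand: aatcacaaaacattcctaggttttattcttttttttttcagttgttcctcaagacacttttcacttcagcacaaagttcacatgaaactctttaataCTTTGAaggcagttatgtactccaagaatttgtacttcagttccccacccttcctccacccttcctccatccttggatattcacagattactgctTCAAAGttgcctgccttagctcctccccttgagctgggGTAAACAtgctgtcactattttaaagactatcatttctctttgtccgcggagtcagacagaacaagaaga
GC content was 58.3% with 12 CpG for Cldn5 and 60.3% with 22 CpG for Mfsd2a. For Slco1a4 it was 40.7% with 1 CpG, for Slco1c1 42.0% with 1 CpG and for Abcb1a 40.3% with 2 CpG. All 32851 RefSeq windows had medians of 52.7% GC and 7 CpG. These 3 genes of low CpG content had endothelial levels of 2404, 1208 and 1389 CPM, within the range of the other members. The ETS motif was found in 1 of the 12 windows, an Ocln entry, against 14.9% of all windows. The SOX motif was in 2 (Slco1a4 and an Abcg2 entry) against 31.0%, the TCF/LEF motif in 2 (Mfsd2a and Abcb1a) against 16.0% and the forkhead motif in 1 (Abcb1a) against 3.65%. A match is a description of these letters and not a binding site.

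Endothelial cells were then split along the vessel by genes outside the 10. Arterial cells (249) had at least 2 UMIs of Gkn3, Bmx, Sema3g and Fbln2 and more of these than of Lrg1, Il1r1 and Vwf. Venous-type cells (541) had the reverse, unzoned cells (649) had under 2 of either sum, and 17 tied cells were left out. The median depth was 3861 UMIs in arterial cells, 4200 UMIs in venous-type cells and 3011 UMIs in unzoned cells. The rule takes no account of depth, so the unzoned group can include shallow cells of either zone. Of the arterial genes kept out of the rule, Hey1, a Notch target of arteries, had 139 CPM in arterial cells, 23.0 CPM in venous-type cells and 69.5 CPM in unzoned cells. Efnb2 and Mgp, also kept out, are not described here. Nr2f2, the venous identity factor, had 12.3 CPM in arterial cells, 139 CPM in venous-type cells and 36.7 CPM in unzoned cells. The 3 capillary genes did not follow one order. Car4 was at 43.4 CPM in arterial cells but at 589 CPM in venous-type cells and 467 CPM in unzoned cells. Spock2 was at 2126 CPM in arterial cells, 2028 CPM in venous-type cells and 2685 CPM in unzoned cells, and Rgcc at 859 CPM in arterial cells, 887 CPM in venous-type cells and 1508 CPM in unzoned cells. Arterial and venous-type cells thus both carry capillary transcripts. Arterial cells held more RNA of some other types. The 4 microglial markers outside the gates summed to 299.9 CPM in arterial cells, 102 CPM in venous-type cells and 180.0 CPM in unzoned cells, with none of the 4 at 0 in any zone. The 3 astrocyte markers summed to 114 CPM in arterial cells, 27.9 CPM in venous-type cells and 43.0 CPM in unzoned cells. The part of this RNA in the zone values was not tested, except where cells without C1qa are given.

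No gene of the 10 was called between arterial and venous-type cells, where 7.07% of 7110 features were called in either direction. Smaller differences were nevertheless larger than counting error for 7 of them, with 2 intervals above 1 and 5 below. The share of all features with such an interval was not counted, so these counts are not read as particular to the 10 genes. The median log2 ratio of the 10 genes was -0.20, and that of all features tested was 0.01.

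Slc7a5 differed most along the vessel. It had 642 CPM (595 to 692) in arterial cells, against 1221 CPM (1179.9 to 1264) in venous-type cells and 1336 CPM (1287 to 1387) in unzoned cells. A UMI was found in 60.9% of arterial cells, 86.3% of venous-type cells and 87.1% of unzoned cells after thinning to 2000 UMIs. The arterial level was 0.526 times the venous-type level (0.483 to 0.571), just short of the limit of 0.5. Against unzoned cells it was 0.481 times (0.441 to 0.523), and Slc7a5 was the 1 gene of the 10 called there, where 4.59% of 7059 features were called. Slc3a2, the heavy chain that LAT1 needs to reach the membrane, had 404 CPM in arterial cells, 560 CPM in venous-type cells and 564 CPM in unzoned cells. In endothelial cells without a UMI of the microglial gene C1qa, the ratio of arterial to unzoned cells for Slc7a5 was 0.502, outside the call.

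Both efflux pumps and the organic anion carrier Slco1a4 were lower in arterial cells than in the other zones. Abcg2 had 920.3 CPM (863 to 979.9) in arterial cells, 1389 CPM (1345 to 1434) in venous-type cells and 1359 CPM (1309 to 1409.9) in unzoned cells. Slco1a4 had 1803 CPM (1723 to 1886) in arterial cells, 2603 CPM (2542 to 2664) in venous-type cells and 2458 CPM (2391 to 2527) in unzoned cells. Abcb1a had 1179 CPM (1114 to 1246) in arterial cells, 1522 CPM (1476 to 1569) in venous-type cells and 1324 CPM (1275 to 1375) in unzoned cells. These arterial levels were 0.663, 0.693 and 0.774 times the venous-type ones. Tjp1, the junction scaffold, was of the same kind, with 1243 CPM (1177 to 1312) in arterial cells, 1707 CPM (1658 to 1757) in venous-type cells and 1472 CPM (1419.9 to 1525) in unzoned cells.

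Slco1c1 and Mfsd2a were higher in arterial than in venous-type cells. Slco1c1 had 1457 CPM (1385 to 1531) in arterial cells, 1017 CPM (979 to 1055) in venous-type cells and 1315 CPM (1266 to 1366) in unzoned cells. Its arterial level was thus 1.43 times the venous-type one (1.35 to 1.53). The 2 organic anion carriers, which sit on the same chromosome, therefore had opposite orders across the zones. Mfsd2a had 282 CPM (251 to 316) in arterial cells, 237 CPM (219 to 256) in venous-type cells and 365 CPM (339.8 to 392) in unzoned cells. Its arterial level was 1.19 times the venous-type one (1.03 to 1.37) but 0.772 times the unzoned one (0.673 to 0.883). Between venous-type and unzoned cells none of the 10 was called, where 2.02% of 6966 features were called. Mfsd2a was furthest from equal there, at 0.649 times the unzoned level (0.583 to 0.722), and Slco1c1 was next at 0.773 times (0.733 to 0.815).

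For Cldn5, Ocln and Slc2a1 the interval of the arterial to venous-type ratio included 1. Cldn5 had 2347 CPM (2256 to 2441) in arterial cells, 2395 CPM (2336 to 2454) in venous-type cells and 2397 CPM (2330.3 to 2464) in unzoned cells, and the ratio of arterial to venous-type cells was 0.980 (0.936 to 1.03). Ocln had 303 CPM in arterial cells, 305 CPM in venous-type cells and 328 CPM in unzoned cells, with an arterial to venous-type ratio of 0.994 (0.871 to 1.13). Slc2a1 had 3732 CPM in arterial cells, 3672 CPM in venous-type cells and 3546 CPM in unzoned cells, and its ratio was 1.02 (0.979 to 1.05). Against unzoned cells, Slc2a1 was higher beyond counting error by a small amount, at 1.05 times in arterial cells (1.01 to 1.09) and 1.04 times in venous-type cells (1.005 to 1.07), and Ocln in arterial cells was at 0.922 times (0.805 to 1.05). Over all 10 genes the summed level was 13908 CPM (13684 to 14134) in arterial cells, 16067 CPM (15916 to 16219) in venous-type cells and 15901 CPM (15729 to 16073) in unzoned cells.

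**Figure D3:**
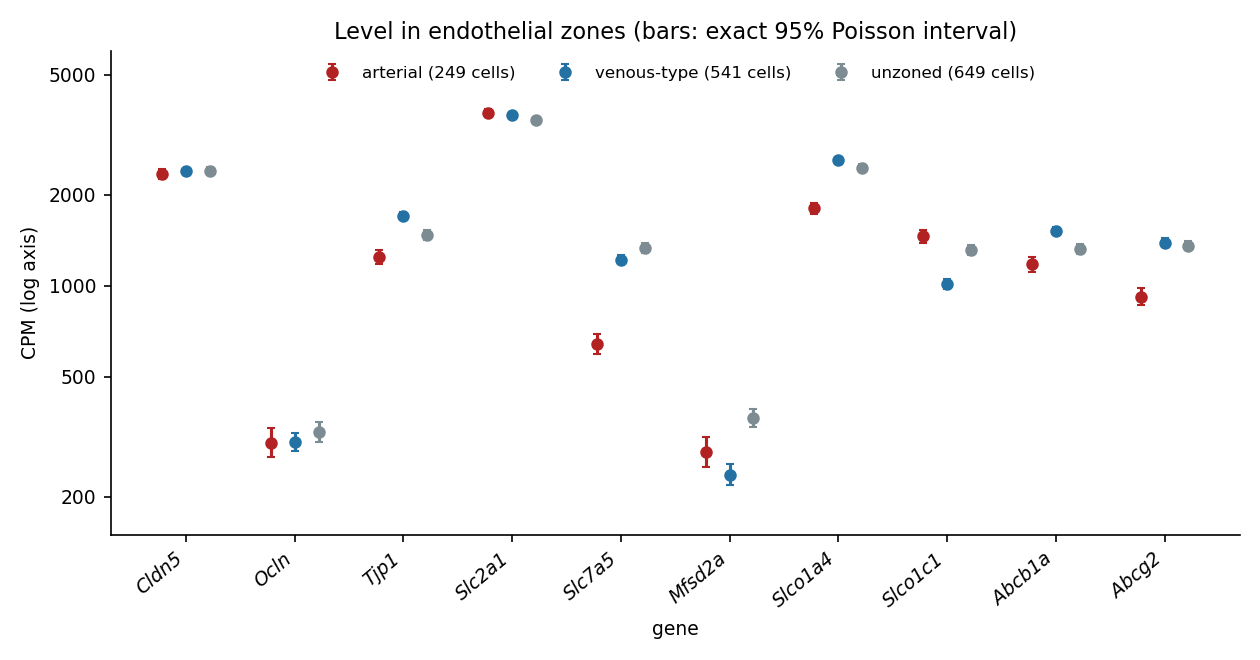
Level of the 10 genes (y axis, CPM on a log scale) in arterial, venous-type and unzoned endothelial cells, with exact 95% Poisson intervals as bars. Slc7a5 shows the widest gap, 642 CPM in arterial cells against 1221 CPM in venous-type cells, while Cldn5 lies between 2347 and 2397 CPM in all zones.

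Other genes of the barrier were taken from 4 lists. Of 20 junction partners, 14 could be tested and 9 were called higher in endothelial than in other typed cells, with 3 lower, where 20.2% of all features were higher and 23.3% lower. VE-cadherin (Cdh5) had 529 CPM against 1.76 CPM in other typed cells, the adhesion molecule Esam 699.6 CPM against 2.27 CPM, and beta-catenin (Ctnnb1) 466 CPM against 112 CPM. Cldn2, the leaky-epithelium claudin, had 0 UMIs in endothelial cells against 30.9 CPM in other typed cells, and Cldn11 of myelin had 1.02 CPM against 34.5 CPM. Between arterial and venous-type cells none of the 11 junction partners tested was called, where 7.07% of 7110 features were called in either direction. Cdh5 had the highest ratio, 1.30 (1.19 to 1.43), with 641 CPM in arterial and 493 CPM in venous-type cells, and the scaffold Magi1 the lowest, 0.634 (0.543 to 0.738), with 199 CPM in arterial and 314 CPM in venous-type cells.

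Of 22 other solute carriers, 18 could be tested, 16 were higher in endothelial cells and 1 was lower, against the 20.2% and 23.3% of all features. The taurine transporter Slc6a6 had 1159 CPM in endothelial cells against 129.8 CPM in other typed cells, the zinc transporter Slc39a10 799 CPM against 37.3 CPM, and the cationic amino acid transporter Slc7a1 565 CPM against 26.4 CPM. Slco2b1 was near equal, with 159.7 CPM in endothelial cells against 136 CPM in other typed cells, and the nucleoside transporter Slc29a1 was the 1 called lower, with 14.6 CPM against 30.4 CPM. Along the vessel 4 of 17 solute carriers tested were lower in arterial than in venous-type cells, where 3.12% of all features were, and 0 were higher, where 3.95% were. These were Slc16a1, which carries lactate and ketones, the amino acid carriers Slc38a3 and Slc38a5, and the metal carrier Slc39a8. Slc38a5, which also served as a venous check gene, had 1 UMI in arterial cells against 272 in venous-type cells, a ratio of 0.00933 (0.000235 to 0.0524). Slc6a6 had the highest ratio, 1.94 (1.82 to 2.06), with 1762 CPM in arterial and 910.4 CPM in venous-type cells.

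**Figure D4:**
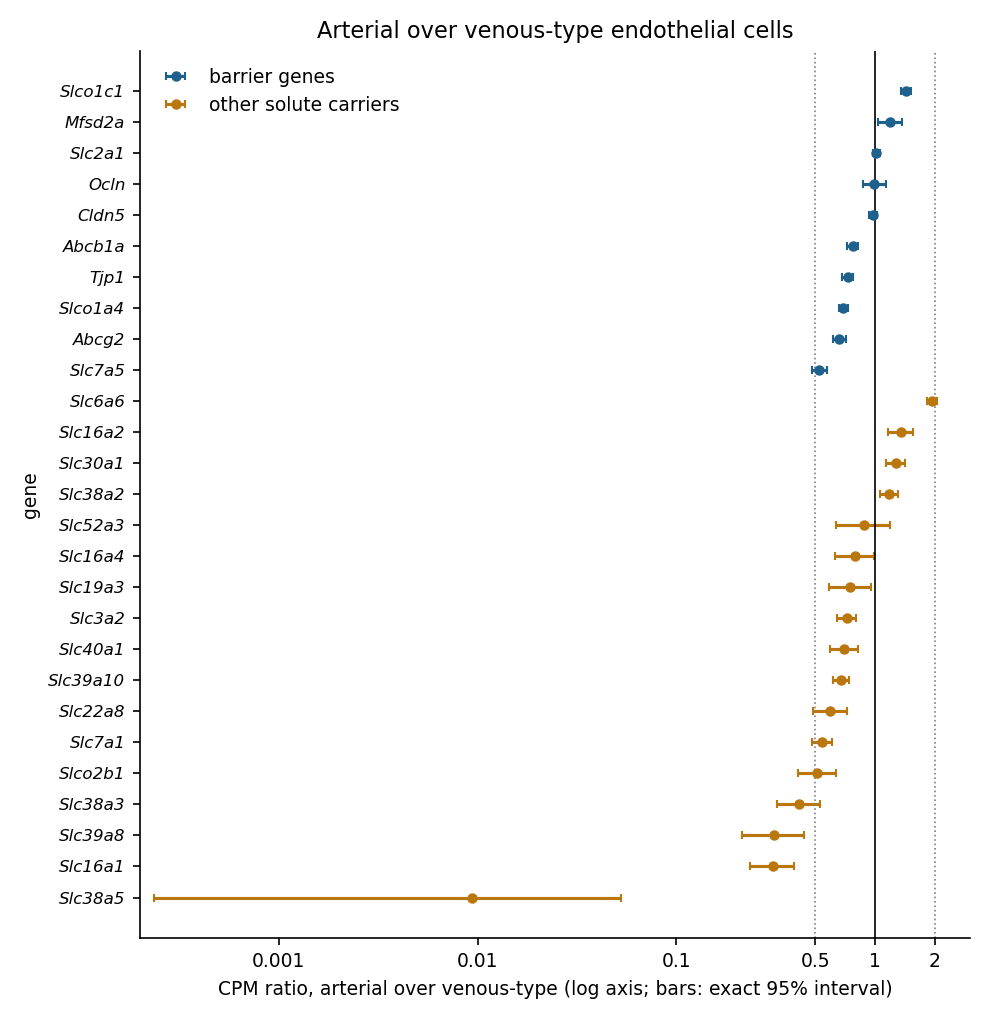
Ratio of arterial to venous-type level (x axis, log scale, exact 95% intervals as bars) for the 10 barrier genes and for the other solute carriers tested, with dotted lines at 0.5 and 2. The 10 genes lie between 0.526 (Slc7a5) and 1.43 (Slco1c1), while 4 other carriers lie below 0.5, Slc38a5 at 0.00933 with a single arterial UMI.

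Of the 10 other efflux pumps on the list, all could be tested, 2 were higher in endothelial cells (Abcc4 and Abcc6) and 4 were lower. The share higher was that of all features, of which 20.2% were higher and 23.3% lower. Abcc6 had 24.8 CPM in endothelial cells against 0.203 CPM in other typed cells. Abcc4, which exports nucleotides and conjugated anions, had 932 CPM in endothelial cells against 22.8 CPM in other typed cells. The cholesterol exporter Abca1 had 83.6 CPM against 264 CPM in other typed cells, Abca3 had 50.5 CPM against 27.1 CPM, and Abcc3 had 3 UMIs in endothelial cells, a ratio of 0.0237 (0.00488 to 0.0696). Between arterial and venous-type cells 6 of these pumps could be tested. Abcg1, a sterol exporter, was the 1 called lower, with 7.54 CPM in arterial against 45.3 CPM in venous-type cells, where 3.12% of all features were lower. None was called higher, where 3.95% were, and Abca1 had the highest ratio of those tested, 1.71 (1.37 to 2.14). Of 12 transcytosis and caveolar genes, 10 could be tested, 7 were higher in endothelial cells and 1 was lower, against 20.2% and 23.3% of all features. The growth factor receptor Igf1r had 3158 CPM in endothelial cells against 89.7 CPM in other typed cells, the caveolar protein gene Cavin2 608 CPM against 14.4 CPM and the transferrin receptor Tfrc 349.6 CPM against 13.4 CPM. Lrp1, a large endocytic receptor, was the 1 called lower, with 4.92 CPM in endothelial cells against 181 CPM in other typed cells, and Ehd4 had 121 CPM against 189 CPM. Tfrc was called lower in arterial cells, with 137 CPM against 381 CPM in venous-type cells. It was the 1 called of 9 tested, where 3.12% of all features were lower and 3.95% higher. Plvap, the diaphragm gene of leaky vessels, had 8 UMIs in all endothelial cells, or 1.36 CPM (0.586 to 2.67).

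Outside the endothelium, microglia were the reference. Their values can hold free RNA of the library as well as transcripts of their own, and these were not told apart. Tjp1 had 24.7 CPM and Slc2a1 34.2 CPM in choroid plexus cells, both under the 133 CPM and 118 CPM of microglia. In microglia the 7 endothelial genes kept out of the gate stood at 0.0742% to 5.16% of their endothelial level, with a median of 0.135%. Cldn5 at 0.110%, Slco1a4 at 0.0917%, Slco1c1 at 0.118%, Abcb1a at 0.0729% and Mfsd2a at 0.0614% were under that median. Slc2a1 at 3.24%, Abcg2 at 2.53%, Slc7a5 at 2.29% and Ocln at 1.82% were above the median but inside the range. Mfsd2a had 3 UMIs in 2484 microglia. Tjp1 alone was above the range, at 8.66%, with 133 CPM (127 to 139) and a UMI in 52.2% of microglia. In microglia Slc2a1 had 118 CPM (113 to 124), Abcg2 32.7 CPM (30.0 to 35.6) and Slc7a5 26.4 CPM (24.0 to 29.0), all inside that range. The top of the range was set by Kdr at 5.16% and Eng at 4.78%, and Cdh5 was next at 0.383%. A place inside the range therefore does not tell free RNA from transcripts of microglia.

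Choroid plexus cells, the epithelium that makes cerebrospinal fluid, also held some of these genes. Of the 7 genes that could be tested, 3 were called higher than in microglia, where 25.4% of 7453 features were, and 2 were called lower, where 42.7% were. The median log2 ratio of choroid plexus cells over microglia was -0.60 over all features tested. Slco1c1 had 382 CPM (368 to 398) in choroid plexus cells against 1.43 CPM (0.916 to 2.13) in microglia, and was found in 90.8% of choroid plexus cells, at a median of 10836 UMIs per cell, against 0.966% of microglia. After thinning to 2000 UMIs it was found in 49.2% of choroid plexus cells and 0.332% of microglia. Slco1a4 had 71.4 CPM (65.1 to 78.1) against 2.20 CPM (1.55 to 3.04) in microglia. Ocln had 55.6 CPM (50.1 to 61.6) against 5.66 CPM (4.58 to 6.92) in microglia. Tjp1, at 24.7 CPM (21.1 to 28.8), and Slc2a1, at 34.2 CPM (29.9 to 38.9), were the 2 lower ones. With cells thinned to 2000 UMIs, Slc7a5 was called lower too, at 6.86 CPM in choroid plexus cells against 30.5 CPM in microglia, a ratio of 0.225 in place of 0.624. Of 11 junction partners that could be tested, 6 were called higher in choroid plexus cells (Cldn1, Cldn2, Cldn3, Tjp3, Cgnl1 and Pard3) and 3 lower (F11r, Ctnnd1 and Magi1), against the same 25.4% and 42.7% of features. Cldn5 had 3.30 CPM (2.07 to 4.99) against 2.62 CPM (1.90 to 3.52) in microglia.

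Ependymal cells, the ciliated lining of the ventricles, had 4 genes called higher than microglia, where 38.9% of 9184 features were, and 1 lower, where 19.4% were, of 6 that could be tested. The median log2 ratio of ependymal cells over microglia was 0.52 over all features tested. Of the genes called higher, Slc2a1 was the most abundant, with 405 CPM (382 to 429.6) against 118 CPM in microglia and a UMI in 82.8% of ependymal cells. After thinning to 2000 UMIs it was found in 57.3% of ependymal cells and 19.6% of microglia. Ocln had 106 CPM (93.7 to 118) against 5.66 CPM in microglia, Slc7a5 54.2 CPM (45.9 to 63.7) against 26.4 CPM, and Slco1c1 49.5 CPM (41.5 to 58.5) against 1.43 CPM. Abcg2 was lower, with 2.91 CPM (1.26 to 5.74) against 32.7 CPM in microglia. The ratio of Slc7a5, 2.05, was 1.37 with cells weighed equally and 1.64 with cells thinned to 2000 UMIs, both outside the call.

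Astrocytes, the cells the study targeted, shared Mfsd2a and Slco1c1 with the endothelium. Of the 8 genes that could be tested in the 142 astrocytes, 6 were called higher than in microglia, where 37.0% of 8977 features were, and 0 lower, where 19.4% were. The median log2 ratio of astrocytes over microglia was 0.50 over all features tested. Mfsd2a had 183 CPM (149.8 to 221) against 0.179 CPM (0.0368 to 0.522) in microglia, which is 62.8% of its endothelial level, and 51 astrocytes held a UMI. Slco1c1 had 313 CPM (269 to 361) against 1.43 CPM in microglia, with a UMI in 80 astrocytes. Tjp1 had 413 CPM (363 to 469) against 133 CPM in microglia. These 3 genes were spread over many astrocytes, with at most 15 UMIs of 242 in a single cell for Tjp1, 11 of 183 for Slco1c1 and 7 of 107 for Mfsd2a.

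The remaining 3 calls in astrocytes had little behind them. Of 13 Cldn5 UMIs in astrocytes, 12 were in 1 cell, and the same cell held all 13 Slco1a4 UMIs, 17 of 49 Slc2a1 UMIs and 26 of 32 UMIs of the endothelial gate, beside 113 UMIs of the astrocyte gate. Without cells that hold an endothelial gate UMI, Cldn5 had 1.78 CPM in astrocytes against 2.45 CPM in microglia and Slco1a4 had 0 against 2.01 CPM, while Mfsd2a and Slco1c1 stayed called. In the same cells Abcg2, at 12.4 CPM in astrocytes against 32.8 CPM in microglia, and Slc2a1, at 56.9 CPM against 114.6 CPM, were called lower. Slc7a5 had 53.0 CPM (36.0 to 75.2) against 26.4 CPM in microglia, a ratio of 2.003 (1.34 to 2.88), at the limit of the call. Ocln, with 2 UMIs, and Abcb1a, with 4 UMIs, were near 0 in astrocytes.

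**Figure D5:**
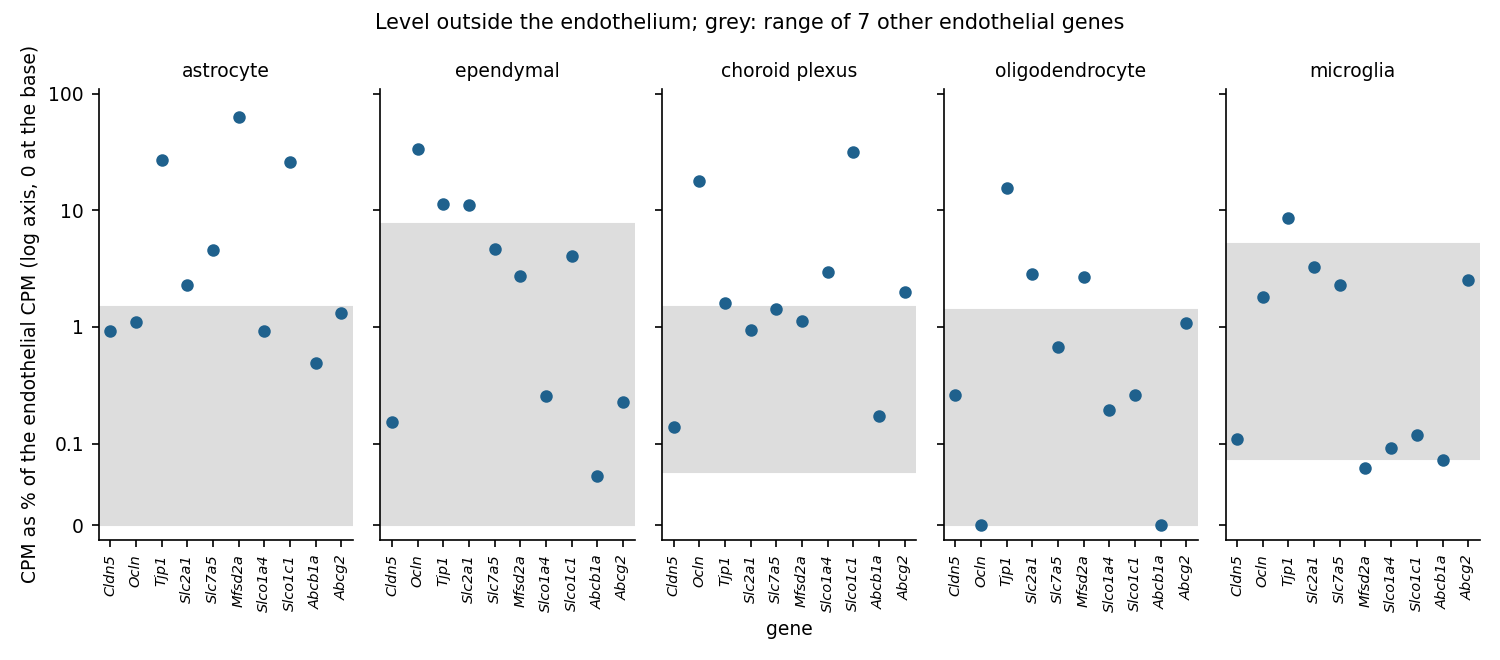
Level of each of the 10 genes in 5 other cell types as a percentage of its endothelial CPM (y axis, log scale with 0 at the base), with the range of 7 other endothelial genes in that type in grey. Mfsd2a in astrocytes (62.8%), Ocln in ependymal cells (33.9%) and Slco1c1 in choroid plexus cells (31.7%) are the highest points of their panels, and all lie above the grey band.

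Among types of at least 50 cells, the order of levels differed from gene to gene. For Cldn5 the endothelium stood alone, and all 7 other types formed a run in which no neighbours differed beyond their intervals, from 22.2 CPM in astrocytes to 2.62 CPM in microglia. Ocln fell off in separate steps over endothelial, ependymal and choroid plexus cells, and the types under these did not differ from their neighbours. Tjp1 ran through endothelial cells, astrocytes, oligodendrocytes (238 CPM), ependymal cells (175 CPM) and microglia without overlap, and B cells, choroid plexus cells and border macrophages were lowest and overlapped. Slc7a5 had another peak in the 52 B cells, at 319.6 CPM (259 to 389.9) with a UMI in 31 of them, beside 1377 CPM (1248 to 1516) of its partner Slc3a2. Slco1c1 was ordered endothelial, choroid plexus, astrocyte and ependymal cells without overlap, and had 0 UMIs in B cells, where 3 UMIs would be 9.89 CPM. Types of under 50 cells held a few high values: Abcb1a had 14 UMIs in 7 of 21 T or NK cells, or 165 CPM (90.0 to 276), and the 9 fibroblasts had 421 CPM (253 to 657) of Abcb1a and 465 CPM (288 to 711) of Abcg2. In these fibroblasts Abcb1a stood at 30.3% and Abcg2 at 36.0% of the endothelial level, and Cdh5 at 37.7%. Of the 7 endothelial genes kept out of the gate, 4 had 0 UMIs there. The part of endothelial RNA in these values was not tested.

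The genes whose levels over the 12 types were most like each of the 10 were found by Pearson's r of log2(CPM + 1), given as a description over 12 points that share 1 library. Cldn5 was most like Ptprb (0.97), Adgrl4 and Tek, all genes of endothelial cells. Abcg2 was most like Cd2ap (0.97), Fn1 and Cdh5, Slco1c1 like Cthrc1 (0.96), Slc16a4 and Me3, and Slco1a4 like Aqp11 (0.93), Adgrl4 and Ccdc141. Tjp1 came closest to Ptprm (0.92), Slc7a5 to Prkd2 (0.92), Abcb1a to Itpr3 (0.91), Mfsd2a to Lcn2 (0.89), Slc2a1 to Rasgrf2 (0.89) and Ocln to Cutal (0.87).

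The reporters were rare in endothelial cells. EGFP of the vector was found in 2 of 1456 endothelial cells, or 0.137% (0.0166 to 0.495), and tdTomato in 36, or 2.47% (1.74 to 3.41). In astrocytes EGFP was found in 2.11% (0.438 to 6.05) and tdTomato in 20.4% (14.1 to 28.0). Ependymal cells had EGFP in 8.13% (5.66 to 11.2) and tdTomato in 5.17% (3.23 to 7.80). Choroid plexus cells had EGFP in 1.19% (0.478 to 2.43) and tdTomato in 13.4% (10.7 to 16.4), and oligodendrocytes had EGFP in 5.81% (1.91 to 13.0) and tdTomato in 2.33% (0.283 to 8.15). Since no library without the vector was analysed, the 10 genes were not compared between cells with and without Hopx repression.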

How the data were processed

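RNA of single cells was measured with a 10x 3′ kit in 1 library. The deposited values are UMI counts per gene and barcode, made by the authors; the submitters' processing notes name Cell Ranger 8.0.1 and the build GRCm39, and no source used here names the annotation version. Barcodes with at least 500 genes and at most 15% mitochondrial UMIs were kept (6485), and 261 doublets called by Scrublet in scanpy 1.11.5 at an expected rate of 0.05 were removed. Symbols without a row, here the check marker Pifo, were left out. UMIs were summed per cell type or zone and divided by the group's total. Levels have exact Poisson intervals, shares of cells Clopper-Pearson intervals and ratios exact binomial intervals, all at 95% and for counting error only, with numpy 2.4.6, scipy 1.17.1 and pandas 2.3.3 in Python 3.11.15. Log2 ratios used sums with 0.5 UMI added. For shares at matched depth, cells with at least 2000 UMIs (5699) were thinned to that number. The 10 genes and the 4 gene lists were chosen with earlier results of these data known. Named from each list are the 3 genes of highest endothelial CPM, the 2 of lowest endothelial ratio and those of highest and lowest arterial to venous-type ratio, at 20 CPM or more; Plvap, Slc3a2 and the called carriers were added after their values were seen. The value of 1 gene that this rule names is not reported here. Alternatives varied the cell filter, doublets, gates, zones, cell weighing, thinning and call rule, and 3 were added after the data were seen. Promoter sequences are from RefSeq on GRCm38.p6.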

Additional observations from a re-analysis of the deposited data

Results flagged for a closer look

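Cells left out of every comparison also held these transcripts. Cldn5 was at 112 CPM (101 to 124) in the 459 mixed cells and at 90.3 CPM (64.5 to 123) in the 216 ungated cells, both above the 2.62 CPM (1.90 to 3.52) of microglia. A Cldn5 UMI was found in 49 mixed cells and 18 ungated cells. Of the mixed cells, 70 reached the endothelial gate. Ungated cells were shallow, with a median of 1478 UMIs, and held Slco1a4 at 124 CPM and Slc2a1 at 232 CPM.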

How the results depend on the processing

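Under 15 alternatives, 830 log2 ratios of the 10 genes were recomputed. A ratio not called as reported that changed sign is counted by its interval alone. This held, among others, for Ocln in arterial over venous-type cells (6 of 14 alternatives) and Abcb1a in ependymal cells over microglia (5 of 10). Of the 830, 736 stayed within their counting interval, 92 moved outside it and 2, called as reported, changed sign. Both were Slco1a4 in astrocytes over microglia, 3.37 as reported, at -1.19 with at least 1000 genes and at most 10% mitochondrial UMIs per cell and -1.20 in non-endothelial cells without an endothelial gate UMI; both settings leave out the astrocyte with 13 Slco1a4 UMIs. In these settings the Cldn5 ratio in astrocytes over microglia, 8.47 as reported, was 0.744 and 0.725, and its log2 ratio stayed above 0 only through the 0.5 UMI added. All 10 genes stayed called in endothelial over other typed cells under each alternative run for that comparison. Between arterial and venous-type cells, 1 gene in place of 0 was called (Slc7a5, ratios of 0.476 to 0.496) with cells weighed equally, with cells thinned to 2000 UMIs, with zones set at 4 or more UMIs and with zones set on thinned cells. Between arterial and unzoned cells, 0 in place of 1 was called at a ratio of 4 and in endothelial cells without C1qa. At a ratio of 4, 3 in place of 5 were called in ependymal cells over microglia. The causes were not tested beyond what each setting removes. The Slc7a5 call in astrocytes was lost under the stricter cell filter and without endothelial gate UMIs (1.88 and 1.95), with doublets kept (1.91), with the leading gate only (1.87), with cells weighed equally (1.49) and with thinning (1.58), and that of Tjp1 (3.11) at a ratio of 4. The call of Cldn5 there was also lost with cells weighed equally (3.36) and with thinning (5.35), and that of Slco1a4 with cells weighed equally (4.23). Abcg2 became called lower in astrocytes under the stricter cell filter (0.408), with the leading gate only (0.480), with cells weighed equally (0.283) and without endothelial gate UMIs (0.380), and Slc2a1 under the stricter filter (0.456) and without gate UMIs (0.496). Thinning made Slc7a5 called lower in choroid plexus cells (0.225). Counts over all features called in either direction followed the call rule. At a ratio of 4 they were 2155 in place of 3667 for endothelial over other typed cells, 148 in place of 503 for arterial over venous-type, 72 in place of 324 for arterial over unzoned and 36 in place of 141 for venous-type over unzoned cells. Over microglia they were 3273 in place of 5078 for choroid plexus cells, 3404 in place of 5348 for ependymal cells and 3051 in place of 5066 for astrocytes. With a filter of 10 UMIs over both groups, the counts were 6845, 847, 624, 445 and 8599 for the first 5 of these comparisons, and thinning gave 213 for venous-type over unzoned cells. No paired analysis was possible because 1 library was analysed. Depth limits Mfsd2a, Slco1c1 and Abcb1a in microglia, where 3 UMIs are 0.179 CPM, and every value in the types of under 50 cells.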

Other observations

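UMIs of a few of these genes were also found in oligodendrocytes and vessel-wall cells. The 86 oligodendrocytes had Tjp1 at 238 CPM (201 to 278) and Slc2a1 at 105 CPM (81.1 to 133), and 0 UMIs of Ocln and Abcb1a. Slc2a1 was thus not above its level in microglia, 118 CPM (113 to 124). The lactate and ketone carrier Slc16a1 had 54.7 CPM (38.1 to 76.1) in oligodendrocytes, 76.9 CPM (56.1 to 103) in astrocytes and 104 CPM (92.4 to 117) in ependymal cells, against 9.65 CPM (8.22 to 11.2) in microglia. In the 10 mural cells, Tjp1 had 382 CPM (218 to 620.2) and Abcg2 167 CPM (67.2 to 344), and Slc7a5, Mfsd2a and Slco1c1 had 0 UMIs, where 3 UMIs would be 71.6 CPM. Tjp1 stood at 24.9% of its endothelial level there, and Abcg2, with 7 UMIs, at 12.9%. Emcn, an endothelial gene kept out of the gate, was just under Abcg2 by this measure, with 2 UMIs. Eng stood at 7.81% and Egfl7 at 7.27%, and 2 of the 7 genes kept out had 0 UMIs. The part of endothelial RNA in these mural values was not tested. Border macrophages had the lowest summed level of the 10 genes of all types, 143 CPM (125 to 163), of which Slc2a1 made 66.2 CPM. Their interval overlapped that of the 22 neurons, at 174 CPM (105 to 272).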
